A study of Mus musculus with 6 samples.

Results

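HRD1, encoded by Syvn1, is the ER-membrane E3 ubiquitin ligase that the study examined in intestinal ischemia/reperfusion (I/R). The data examined here were the RNA levels of Syvn1 and of 9 genes whose products work with HRD1, namely Sel1l, Herpud1, Derl1, Derl2, Os9, Edem1, Ube2j1, Aup1 and Selenos. These 10 genes were taken by name as components or partners of the HRD1 degradation complex, out of 12006 genes that were tested, and all 10 passed the filter on low values. RNA-seq was performed on small intestine of C57BL/6 mice, with 3 libraries from the I/R group (replicates 6, 7 and 9) and 3 from the sham group (replicates 1, 3 and 5). The mice of both groups were 8 weeks old and the labels name no genetic change. In the I/R group the superior mesenteric artery was blocked and then released, and sham mice had the same surgery without the block. Whether the libraries stem from different animals is not stated in the labels, and the p-values cover library-to-library spread, which may be technical. The values were FPKM (fragment numbers corrected for transcript length and library size), summed over the listed transcripts of each gene.

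ER-associated degradation (ERAD) removes misfolded proteins from the ER by passing them back through the membrane to the proteasome. Lectins and mannose-trimming enzymes pick the substrate, SEL1L holds the complex together, the derlins help to form the exit channel, HRD1 with an E2 enzyme attaches ubiquitin, and the ATPase VCP pulls the substrate out. Many of these genes are targets of the unfolded protein response (UPR), in which ATF6 and XBP1 act through ER stress response elements (ERSE) in promoters. In the intestine, secretory cells such as goblet and Paneth cells depend strongly on this pathway.

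Promoter sequence was examined first because it shows which members carry such elements near their start. The RefSeq promoter table (GRCm38.p6, 250 bases before to 50 after each start, 32851 windows) held 9 windows of 8 members, while Derl1 and Aup1 were not matched. Both strands were searched for ERSE (CCAAT, then 9 bases of any kind, then CCACG), for ERSE without its last base (which every ERSE also matches), for ERSE-II (ATTGG, then 1 base of any kind, then CCACG), for the XBP1-type element UPRE (TGACGTGG) and for the ATF4-CHOP-type element CARE (TGATGCAA). The windows holding a match were 0.119% of all for ERSE, 0.365% for ERSE without its last base, 0.0365% for ERSE-II, 0.676% for UPRE and 0.895% for CARE. Syvn1 had an ERSE 44 to 26 bases before its start. Herpud1 had an ERSE-II 52 to 42 bases before the start, an ERSE without its last base at 18 to 1 bases, and a CARE on the opposite strand at 112 to 105 bases. Ube2j1 had a UPRE on the opposite strand at 68 to 61 bases, and 1 of the 2 Derl2 windows had an ERSE without its last base on the opposite strand. The windows of Selenos, Sel1l, Os9 and Edem1 had no match to these letters. The 120 bases before the start are shown for 3 members, with the fixed letters of each match in capitals (Syvn1 on chr19:6046456-6046575, Herpud1 on chr8:94386309-94386428 and Ube2j1 on chr4:33031260-33031379, all plus strand, GRCm38.p6). A match is a description of the letters and was not tested as a binding site.
Syvn1: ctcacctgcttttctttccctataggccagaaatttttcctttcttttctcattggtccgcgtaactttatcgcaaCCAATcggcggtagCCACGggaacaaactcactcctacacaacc
Herpud1: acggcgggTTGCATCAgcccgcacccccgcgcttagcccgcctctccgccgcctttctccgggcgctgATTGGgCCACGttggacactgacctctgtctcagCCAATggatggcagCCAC
Ube2j1: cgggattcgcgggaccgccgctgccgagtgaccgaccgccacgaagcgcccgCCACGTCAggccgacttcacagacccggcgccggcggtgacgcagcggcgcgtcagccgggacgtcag

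The libraries differed in cell type markers, which bears on the levels because in bulk tissue fewer cells of a type and less RNA per cell cannot be told apart. All 12 enterocyte markers were listed in the table, with summed levels of 8678 to 17410 FPKM in I/R and 10646 to 21113 FPKM in sham. Of these, 4 had a higher and 8 a lower mean log2 level in I/R. Anpep and Slc2a5 lay lower in I/R without overlap, as did 5.89% of all genes. Neutrophil markers (6 of 8 listed, S100a8 at 0 in all sham libraries) summed to 8.35 to 23.5 FPKM in I/R and 2.26 to 5.69 FPKM in sham. Singly, S100a8, S100a9 and Il1r2 lay higher in I/R without overlap, and Retnlg and Csf3r overlapped. Mmp9 went the other way without overlap, at 0.565 to 0.986 FPKM in I/R and 1.19 to 1.23 FPKM in sham. T cell markers (7 of 8 listed) summed to 84.9 to 111.9 FPKM in I/R and 136.2 to 195.6 FPKM in sham. Singly, only the granzymes Gzma and Gzmb lay lower in I/R without overlap. Gzma was at 51.5 to 77.4 FPKM in I/R and 96.0 to 121.3 FPKM in sham. Cd3d, Cd3e, Cd3g, Cd4 and Cd8a overlapped, and Cd4 and Cd3d had a higher mean log2 level in I/R. The 8 goblet markers summed to 1558 to 2944 FPKM in I/R and 2167 to 4335 FPKM in sham, with overlap. Their mean log2 levels were lower in I/R for 7 and higher for 1 (12.5%, against 62.6% of all genes). Their median log2 fold change was -0.76. Fcgbp lay lower without overlap, at 84.5 to 220.8 FPKM in I/R and 252.1 to 393.9 FPKM in sham, and the others overlapped. Plasma cell markers (8 of 9 symbols listed) summed to 190.2 to 436.5 FPKM in I/R and 114.8 to 333.3 FPKM in sham. The 8 Paneth markers summed to 94.3 to 328.1 FPKM in I/R and to 67.9, 79.6 and 2394 FPKM in sham replicates 3, 1 and 5. Smooth muscle markers (7 of 7 listed) were at 27.8 FPKM in I/R replicate 9 and 125.8 to 819.6 FPKM in the other libraries. Red cell sums (4 of 5 listed) were 62.9 to 185.3 FPKM in I/R and 18.8 to 92.1 FPKM in sham, and the macrophage, adipocyte and endothelial sums also overlapped. The neutrophil and T cell sums separated the groups, as did Herpud1, Selenos, Ube2j1 and Aup1, and their part in the members' values was not tested.

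None of the 10 members passed the adjusted threshold of 0.05 in limma, where 0.0333% of all genes tested did (0.0167% higher in I/R and 0.0167% lower). At an unadjusted p below 0.05, 3 of 10 members were called, 2 higher in I/R (Herpud1 and Selenos; 5.56% of all genes) and 1 lower (Aup1; 3.38% of all genes). For 8.94% of all genes that p was reached in either direction, 667 higher and 406 lower in I/R. The split was 457 higher and 611 lower once libraries were scaled by median ratio. The I/R libraries lay wholly above the sham libraries for Herpud1, Selenos and Ube2j1 (10.6% of all genes) and wholly below them for Aup1 (5.89% of all genes). That made 4 of 10 members without overlap in either direction, against 16.5% of all genes. Mean log2 levels were higher in I/R for 6 of 10 members (3 of 10 with median-ratio scaling), against 62.6% of all genes, and the median log2 fold change over the members was 0.04, against 0.12 over all genes. Every log2 fold change below is the I/R mean less the sham mean of log2(FPKM + 1). The members were a fixed choice of genes made with earlier results of these data known, so these shares describe them and test nothing about the group.

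**Figure D1:**
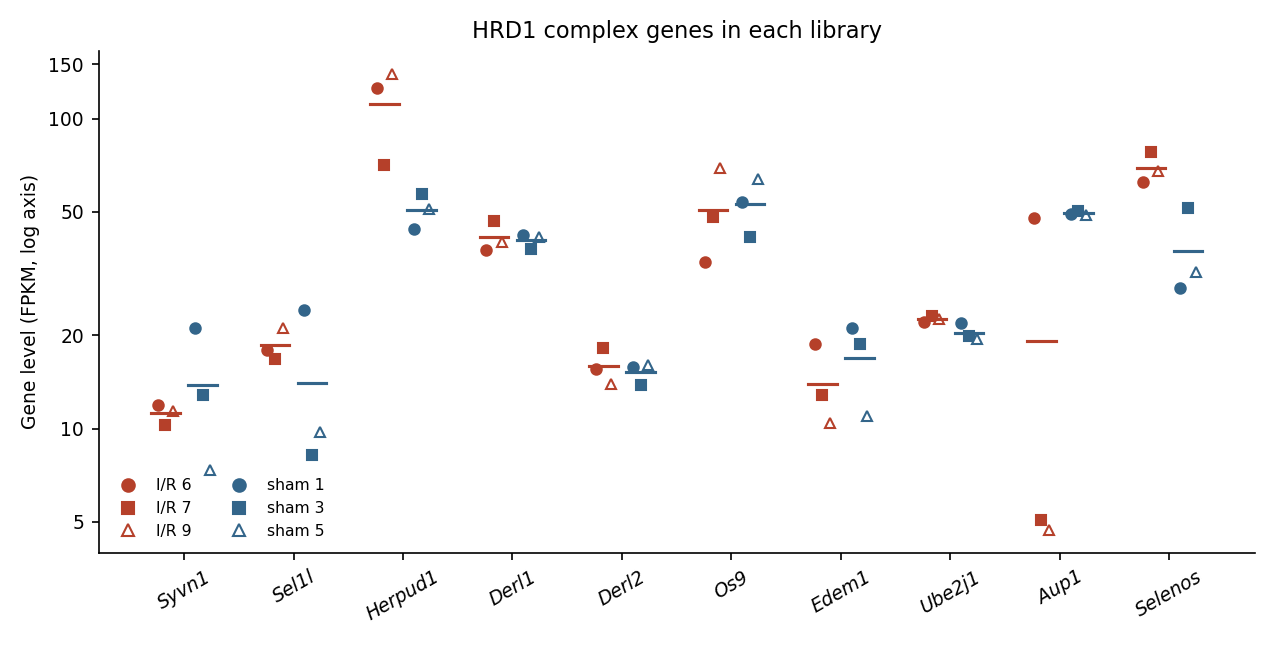
Level of each of the 10 genes in each library, in FPKM on a log axis, with I/R libraries in red left of sham libraries in blue and horizontal lines at the group means (n = 3 each). Herpud1 and Selenos were higher in every I/R library than in any sham library, and Aup1 was near 5 FPKM in I/R replicates 7 and 9.

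In the I/R group the members ranked by mean FPKM, a level per transcript length, as Herpud1, Selenos, Os9, Derl1, Ube2j1, Aup1, Sel1l, Derl2, Edem1 and Syvn1. The order in the sham group was Os9, Herpud1, Aup1, Derl1, Selenos, Ube2j1, Edem1, Derl2, Sel1l and Syvn1. Syvn1 thus had the lowest mean of the 10 in both groups. Within the I/R group, the only neighbours whose means differed by more than their summed SDs were Derl1 and Ube2j1. Within the sham group these were Aup1 and Derl1, and Selenos and Ube2j1. Summed over the 10 genes, the levels were 393.7, 330.3 and 400.7 FPKM in I/R replicates 6, 7 and 9, against 321.4, 312.3 and 300.8 FPKM in sham replicates 1, 3 and 5. The I/R sums were the higher ones, and Herpud1 alone made up between 21.4% and 34.9% of the sum in I/R and between 13.7% and 18.3% in sham. Without Herpud1 the sums of the other members overlapped between the groups, with sham replicate 1 highest. The higher sums in I/R thus do not describe the members as a whole.

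The ligase itself showed a different pattern. Syvn1 (chromosome 19, 6046576 to 6053712, plus strand, mm10) measured 11.9, 10.3 and 11.4 FPKM in I/R (replicates 6, 7 and 9), against 21.2, 12.8 and 7.35 FPKM in sham (replicates 1, 3 and 5). This library order holds for all values below. The I/R values were close together and lay inside the sham range, which was set by sham replicate 1 at the top and sham replicate 5 at the bottom. The difference was -0.17 ± 0.36 (SE) on the log2 scale, with a 95% interval from -1.02 to 0.69 and a limma adjusted p of 0.886. An exact permutation test gave a 2-sided p of 0.7, where the smallest p possible with 3 against 3 libraries is 0.1. Without sham replicate 1 the log2 fold change turned to 0.18 (limma adjusted p = 0.776). Without sham replicate 5 it was -0.52. With the interval given, a moderate change of Syvn1 RNA in either direction was not detectable. Mrpl49, which overlaps Syvn1 on the opposite strand, was at 14.8, 3.32 and 16.1 FPKM in I/R and 4.00, 8.91 and 14.3 FPKM in sham.

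SEL1L is the adaptor that stabilizes HRD1 and links it to the lectins. Sel1l (chromosome 12, 91806043 to 91849157) was at 17.9, 16.8 and 21.1 FPKM in the I/R libraries, against 24.2, 8.21 and 9.73 FPKM in the sham libraries. Sham replicate 1 stood above all I/R libraries and the other sham libraries below them. The log2 fold change was 0.53 ± 0.39 (SE; limma adjusted p = 0.677), and it moved with single sham libraries. It was 0.97 without sham replicate 1 (limma adjusted p = 0.197), 0.25 without sham replicate 3 (limma adjusted p = 0.926) and 0.36 without sham replicate 5 (limma adjusted p = 0.864). The ratio of Sel1l to Syvn1 within a library was 1.503, 1.63 and 1.85 in I/R and 1.14, 0.641 and 1.32 in sham. Of 9 such ratios to Syvn1, those of Sel1l and Selenos lay above sham without overlap, against 7.49% of all other genes (8.35% in either direction), an observation made after their values were seen.

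HERPUD1, a ubiquitin-like membrane protein that binds HRD1 and helps to assemble the complex, had the largest positive log2 fold change of the members, short of the adjusted threshold. Herpud1 (chromosome 8, 94386438 to 94395377) measured 125.2, 70.7 and 139.8 FPKM in I/R, against 44.0, 57.2 and 51.1 FPKM in sham. I/R replicate 7 lay closest to the sham libraries. The means were 111.9 ± 36.4 FPKM in I/R and 50.8 ± 6.60 FPKM in sham (SD, n = 3 each), a ratio of 2.20. On the log2 scale the difference was 1.07 ± 0.29 (SE), with a 95% interval from 0.39 to 1.76, and the limma adjusted p of 0.471 missed the threshold. It ranked 193 of 12006 genes by p. Gm15890, annotated antisense to Herpud1, was not listed, and Mis12 overlaps Derl2 on the opposite strand. The log2 fold change stayed between 0.81 and 1.37 under all 14 alternatives. Hspa5, the chaperone BiP and a standard UPR target, was at 187.4, 267.2 and 201.5 FPKM in I/R and 162.6, 114.6 and 90.7 FPKM in sham. The ratio of Herpud1 to Hspa5 overlapped between the groups, spanning 0.265 to 0.694 in I/R libraries, against 0.271 to 0.563 in sham.

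Selenos encodes a selenoprotein that ties VCP to the derlins and is itself known as an ER stress target. It was at 62.4, 78.3 and 67.5 FPKM in the I/R libraries, against 28.4, 51.6 and 31.9 FPKM in the sham libraries (chromosome 7, 66079649 to 66089405). No library of one group reached the range of the other, and sham replicate 3 came closest. The difference of 0.92 ± 0.25 (SE) on the log2 scale had a 95% interval from 0.31 to 1.53 and a limma adjusted p of 0.483. It stayed between 0.75 and 1.17 under all 14 alternatives, but the unadjusted limma p was 0.0568 after median-ratio scaling, which ends that call. Its library order was not that of Herpud1, since I/R replicate 7 was highest for Selenos and lowest among I/R libraries for Herpud1.

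**Figure D2:**
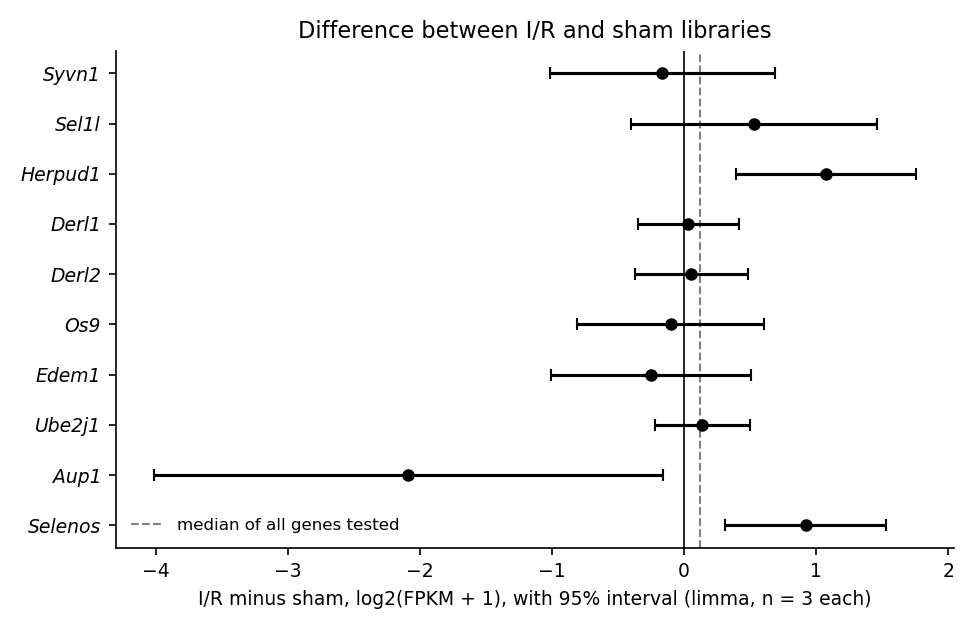
Difference between I/R and sham libraries for each gene, as log2(FPKM + 1) with 95% limma intervals (n = 3 each), and the median of all genes tested (0.12) as a dashed line. The intervals of Herpud1 and Selenos lay above 0 and that of Aup1 below 0, before adjustment over 12006 genes.

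The derlins and the E2 enzyme were the steadiest members. Derl1 (chromosome 15, 57869502 to 57892448) was at 37.8, 46.9 and 40.0 FPKM in I/R and at 42.0, 38.1 and 41.4 FPKM in sham. Its 95% interval ran from -0.35 to 0.41 on the log2 scale. Derl2 (chromosome 11, 71007164 to 71019841) was at 15.5, 18.3 and 13.9 FPKM in I/R and at 15.8, 13.9 and 16.0 FPKM in sham, with an interval from -0.37 to 0.48. These intervals leave little room for a change of 1.5-fold in either gene. Ube2j1, the membrane-anchored E2 that supplies ubiquitin to HRD1, was at 22.1, 23.1 and 22.6 FPKM in I/R and at 21.9, 19.9 and 19.5 FPKM in sham (chromosome 4, 33031416 to 33052363). The groups did not overlap, yet the log2 fold change was only 0.14 ± 0.15 (SE; limma adjusted p = 0.76), close to the median of all genes, and was -0.00084 after median-ratio scaling.

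Substrate selection was represented by Os9, a lectin that reads trimmed glycans, and Edem1, a mannosidase-like protein that marks glycoproteins for disposal. Os9 (chromosome 10, 127095650 to 127121131) was at 34.4, 48.1 and 69.2 FPKM in I/R and 53.7, 41.5 and 63.8 FPKM in sham. It varied more within each group than between them (log2 fold change -0.10 ± 0.30, SE; limma adjusted p = 0.915). Edem1 (chromosome 6, 108828641 to 108859356) was at 18.7, 12.8 and 10.4 FPKM in I/R and 21.1, 18.8 and 11.0 FPKM in sham. Its groups also overlapped, and the difference on the log2 scale was -0.25 ± 0.32 (SE; limma adjusted p = 0.79), running from -0.52 without sham replicate 5 to -0.074 without I/R replicate 9. Within the I/R group the library with the highest Os9 had the lowest Edem1, and the ratio of Os9 to Edem1 was 1.84 in I/R replicate 6 and 6.66 in I/R replicate 9, against 2.21 to 5.81 in sham. Sham replicate 1 was the highest of the 6 libraries for Syvn1, Sel1l and Edem1 and the lowest for Herpud1 and Selenos.

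AUP1 recruits the E2 enzyme UBE2G2 to the HRD1 complex and is also known from lipid droplets. Aup1 (chromosome 6, 83054521 to 83057808, plus strand) measured 47.8, 5.06 and 4.70 FPKM in I/R, against 49.2, 50.4 and 49.0 FPKM in sham. I/R replicate 6 was thus close to the sham libraries, which hardly differed, and I/R replicates 7 and 9 were far below all others. Whether these low values are an error in estimating the transcript was not tested, since no reads were used here. These unlike libraries averaged to a difference of -2.09 ± 0.81 (SE) on the log2 scale, with a limma adjusted p of 0.543. Without I/R replicate 6 it was -3.10 with a limma adjusted p of 0.0139, without I/R replicate 7 it was -1.60 and without I/R replicate 9 it was -1.56. Leaving out any library other than I/R replicate 6 also lost the unadjusted limma call, with p between 0.0763 and 0.118. All of the value stood on a single listed transcript, Aup1-201 (12 exons, 1769 bases), and the other 16 annotated transcripts of the gene were not listed. Htra2 lies over part of Aup1 on the opposite strand and was at 6.24, 4.16 and 4.40 FPKM in I/R and 8.72, 5.03 and 6.67 FPKM in sham. The kit marks strand, but whether the counting used strand is not given in the sources used here.

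To see how often libraries split in this way, genes were counted in which I/R replicates 7 and 9 were each at most 1/5 of I/R replicate 6 and of every sham library. There were 13 such genes (0.108% of those tested), and this count was devised after the values of Aup1 were seen. Aup1 was the most abundant of them. The next were Plpp6, a lipid phosphatase (15.6, 0 and 0 FPKM in I/R; 18.5, 18.7 and 19.25 in sham), Impad1 (17.8, 0.912 and 1.73 FPKM in I/R; 19.7, 14.1 and 18.3 in sham) and Rnf139. For Plpp6 and Rnf139 a listed 0 does not show that RNA was absent, and for all 4 genes an error of estimation was not tested. Rnf139 encodes TRC8, another ER-resident ubiquitin ligase, and was at 7.03, 0 and 0.0134 FPKM in I/R and at 7.11, 5.70 and 6.29 FPKM in sham (limma adjusted p = 0.563).

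**Figure D3:**
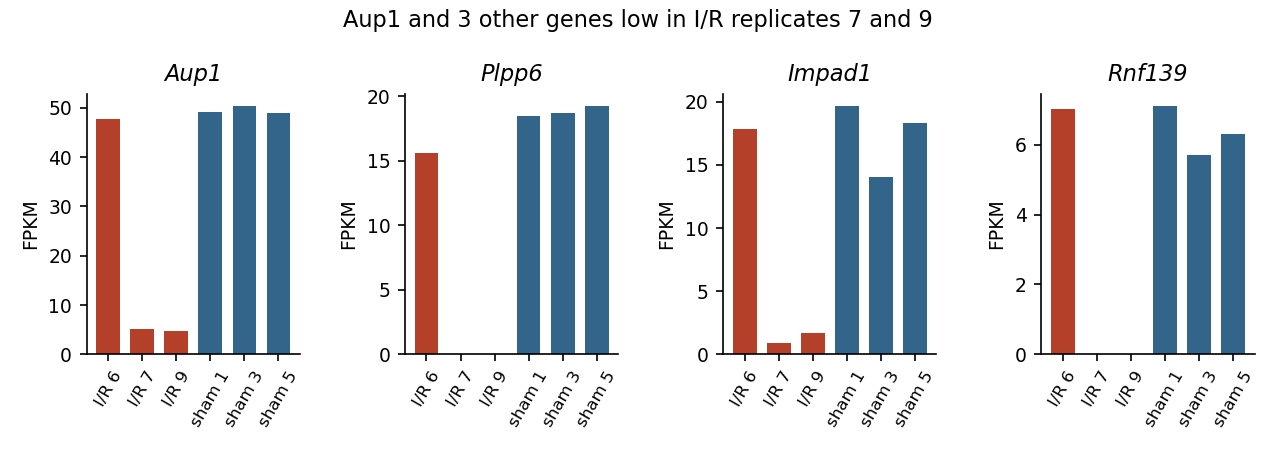
Aup1 and the next 3 most abundant genes of the 13 that were at most 1/5 in I/R replicates 7 and 9, as FPKM per library from 0, with I/R libraries in red and sham libraries in blue (1 bar per library). I/R replicate 6 lay near the sham libraries in each panel.

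The table was given per transcript, and the members differed in how their sums were made up. The members had 20 listed transcripts, all annotated as protein-coding. None passed the adjusted threshold of the fit over transcripts (0.0329% of all transcripts), and 6 of 20 had an unadjusted limma p below 0.05 (7.41% of all transcripts). These were Aup1-201, Herpud1-201, Herpud1-205, Selenos-201, Syvn1-207 and Derl2-207. Where members of a pair differ by few bases, the division of reads between them is uncertain. Herpud1-205 and Herpud1-201 differ inside their shared span only by 3 coding bases in exon 3 (chr8:94389521-94389523). Selenos-201 and Selenos-205 differ there only by 3 coding bases in exon 5 (chr7:66087269-66087271). Syvn1-204 and Syvn1-207 differ there only by 12 coding bases in exon 16 (chr19:6052548-6052559). These are mm10 coordinates, and the ends of the transcripts also differ. The junctions are shown with 20 bases on each side, because few reads can cover them, and the extra bases are in capitals.
Herpud1-205: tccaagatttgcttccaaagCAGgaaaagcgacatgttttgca
Herpud1-201: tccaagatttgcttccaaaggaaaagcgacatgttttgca
Selenos-201: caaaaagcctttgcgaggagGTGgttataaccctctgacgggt
Selenos-205: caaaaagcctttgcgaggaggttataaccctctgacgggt
Syvn1-204: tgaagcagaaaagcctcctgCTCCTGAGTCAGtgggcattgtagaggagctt
Syvn1-207: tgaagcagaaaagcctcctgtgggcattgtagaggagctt

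Herpud1-205 was the main form and was at 79.3, 65.5 and 98.8 FPKM in I/R and 38.7, 54.5 and 44.3 FPKM in sham. No sham library reached the lowest I/R library (log2 fold change 0.81 ± 0.23, SE; limma adjusted p = 0.609 over transcripts). Herpud1-201, without the 3 bases, was at 45.9, 5.21 and 41.0 FPKM in I/R and 5.27, 2.72 and 6.84 FPKM in sham. It was high in I/R replicates 6 and 9 and at the sham level in I/R replicate 7 (log2 fold change 2.02 ± 0.79, SE; limma adjusted p = 0.673). Herpud1-201 was 36.6%, 7.37% and 29.3% of the gene sum in I/R replicates 6, 7 and 9, against 4.76% to 13.4% in sham libraries. In the listed values, whose division between the forms is uncertain, the lower Herpud1 sum of I/R replicate 7 lay for the larger part in this form.

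Selenos-201 was at 59.1, 59.8 and 62.4 FPKM in I/R and 25.6, 50.3 and 28.9 FPKM in sham. Selenos-205, without the 3 bases, was at 3.36, 18.5 and 5.19 FPKM in I/R and 2.78, 1.26 and 3.06 FPKM in sham. I/R replicate 7 was the library in which it was a large share, at 23.6% of the gene sum, and the other libraries were at 2.45% to 9.81%. As listed, neither form overlapped between the groups (limma adjusted p = 0.663 for Selenos-201 and 0.678 for Selenos-205). The unadjusted limma p of Selenos-201 was 0.0207, and 0.0847 after median-ratio scaling. That of Selenos-205 was 0.0625. Because the division of reads between these forms is uncertain, which form held the higher Selenos level in I/R was not tested.

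The main Syvn1 transcript, Syvn1-204 (16 exons, 3464 bases), was at 5.11, 7.31 and 9.96 FPKM in I/R and 19.0, 12.1 and 5.96 FPKM in sham (log2 fold change -0.57 ± 0.43, SE; limma adjusted p = 0.764). Its share of the Syvn1 sum was 42.9%, 71.0% and 87.2% in I/R replicates 6, 7 and 9, and 81.2% to 94.0% in sham. I/R replicate 6 held the remainder as Syvn1-203 (2.80 FPKM), Syvn1-202 (2.05 FPKM) and Syvn1-207 (1.95 FPKM). Syvn1-203 has a later start and a different end of exon 1, and was below 0.2 FPKM in the other 5 libraries. Syvn1-207, which lacks the 12 bases, was at 1.95, 0.596 and 0.723 FPKM in I/R and at 0, 0 and 0.206 FPKM in sham, without overlap but at a low level (limma adjusted p = 0.67). Because Syvn1-207 was listed only through its I/R mean, this lack of overlap is no support for a higher level. Os9 was split nearly evenly, with Os9-202 at 42.4% to 53.8% of the sum in I/R and 48.1% to 56.4% in sham. Derl2-206, Sel1l-201 and Ube2j1-202 made up at least 74.6% of their genes in every library. Derl2-207, which has another first exon and a shorter coding part, was at 1.32, 0.773 and 1.497 FPKM in I/R and 0.338, 0.536 and 0 FPKM in sham. Like Syvn1-207, it was listed only through its I/R mean.

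**Figure D4:**
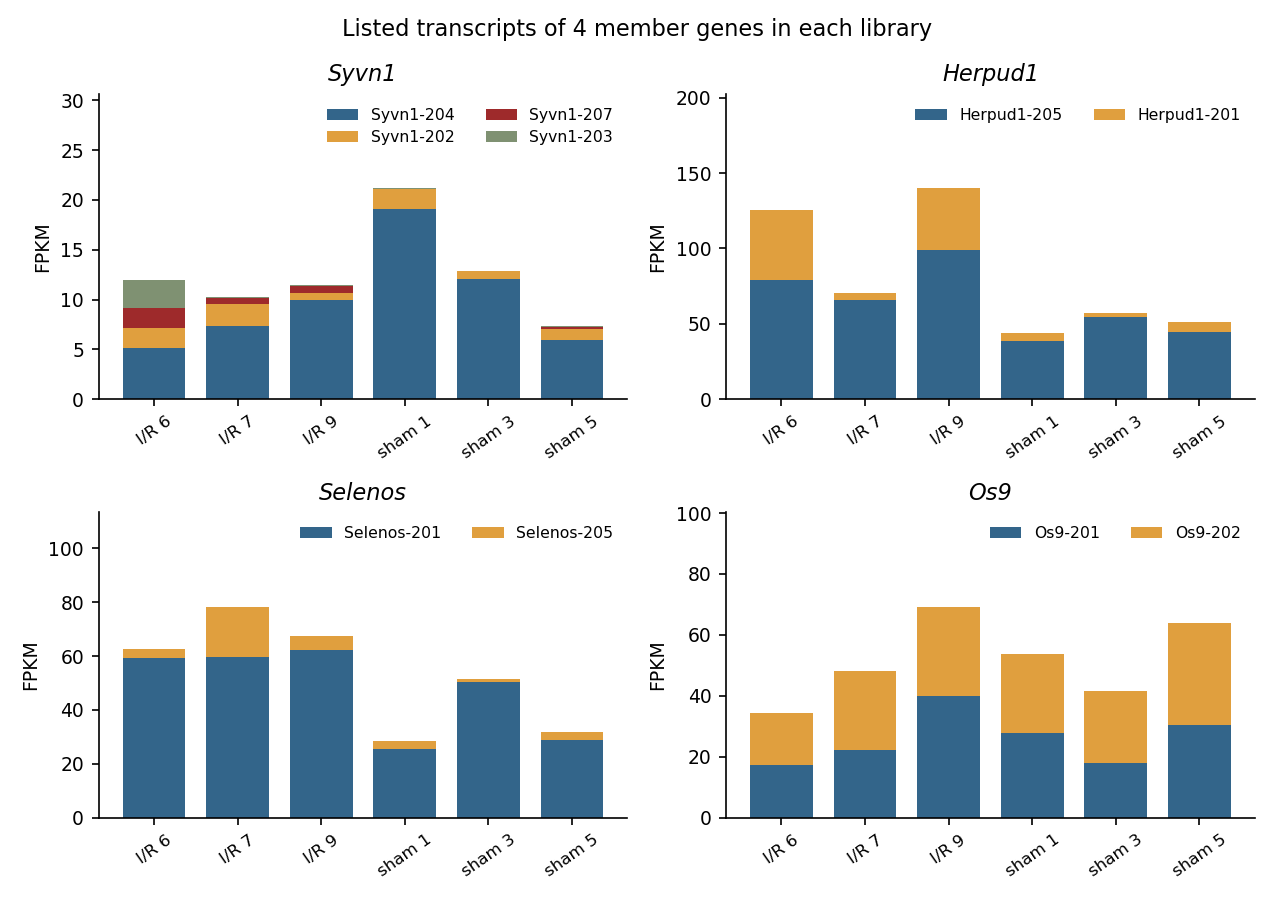
Listed transcripts of Syvn1, Herpud1, Selenos and Os9, stacked as FPKM per library from 0 with I/R libraries left of sham libraries. Herpud1-201 was large in I/R replicates 6 and 9 only, Selenos-205 in I/R replicate 7 only, and Syvn1-204 was the smaller part of Syvn1 only in I/R replicate 6.

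The rest of the ERAD pathway gave the setting. Of 49 other ERAD genes tested, 26 (53.1%) had a higher and 23 a lower mean log2 level in I/R, against 62.6% of all genes with a higher mean. The median log2 fold change was 0.05, against 0.12 over all genes. None passed over all genes in limma, and at an unadjusted p below 0.05 there was 1 higher and 3 lower. Over all genes, 5.56% were higher and 3.38% lower at that p, 8.94% in either direction. Erlin1, a scaffold for ER ligases, was at 26.1, 26.2 and 21.2 FPKM in I/R and 30.8, 36.0 and 36.0 FPKM in sham (limma adjusted p = 0.533). Ngly1, which strips glycans from retrotranslocated proteins, was at 6.90, 10.6 and 10.8 FPKM in I/R and 14.7, 12.7 and 14.2 FPKM in sham (limma adjusted p = 0.554). Get4, a partner of the BAG6 chaperone that holds such proteins in the cytosol, was the one higher gene, at 28.3, 32.3 and 32.9 FPKM in I/R and 24.8, 20.6 and 23.0 FPKM in sham (limma adjusted p = 0.541).

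ER chaperones and UPR regulators were mixed. Of 18 chaperones and enzymes of ER folding, 15 (83.3%) were higher in mean log2 level in I/R, against 62.6% of all genes. At an unadjusted limma p below 0.05, 3 were higher (Hspa5, Creld2 and Hyou1), where 5.56% of all genes were. None passed over all genes. The median log2 fold change was 0.23, above that of the members (0.04) and of all genes (0.12), without scaling between libraries. The list was not tested as a group. Manf, a secreted stress-response factor and the fourth of this list by p, was at 78.5, 119.8 and 70.4 FPKM in I/R and 80.1, 53.5 and 54.6 FPKM in sham. Of 13 UPR transducers and regulators, 4 (30.8%) had a higher and 9 a lower mean, against 62.6% of all genes with a higher mean. An unadjusted limma p below 0.05 was reached by 1, which was lower in I/R, as were 3.38% of all genes. That gene, Atf4, was at 180.5, 31.5 and 46.9 FPKM in I/R and 166.3, 220.1 and 213.7 FPKM in sham, low in the same I/R libraries as Aup1. Xbp1, which drives many ERAD genes, was at 80.8, 78.2 and 91.0 FPKM in I/R and 69.1, 19.9 and 72.6 FPKM in sham (limma adjusted p = 0.625). Creb3l2, an ER-anchored transcription factor, was at 3.45, 3.53 and 1.20 FPKM in I/R and 3.16, 12.7 and 8.11 FPKM in sham. Eif2ak3, the sensor PERK, was at 12.8, 11.2 and 8.31 FPKM in I/R and 9.12, 6.06 and 5.87 FPKM in sham.

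**Figure D5:**
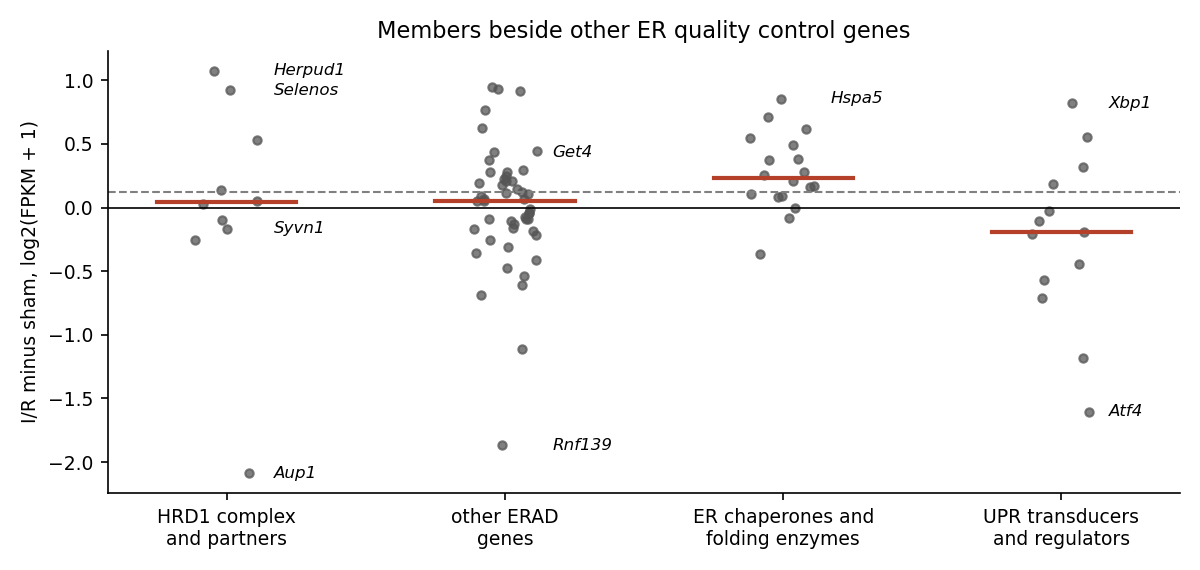
Log2 fold change (I/R minus sham, log2(FPKM + 1)) of each member and of each other ERAD gene, ER chaperone and UPR regulator tested, with list medians as red bars and the median of all genes tested as a dashed line (1 point per gene). Medians were 0.04 for members, 0.05 for other ERAD genes, 0.23 for chaperones and -0.19 for UPR regulators, and Aup1 and Rnf139 lay lowest.

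The Syvn1 profile over the 6 libraries was compared with those of 6806 genes of at least 5 FPKM, by the root mean square difference of centred log2(FPKM + 1) values. The nearest were Cd8a (0.13), Tomm6 (0.15), Chordc1 (0.16), Gm10031 (0.16) and Lemd2 (0.16). Like Syvn1, each of them was highest in sham replicate 1 and lowest in sham replicate 5. This likeness follows from picking the nearest profiles and is no separate result. By this distance from Syvn1 the members ranked in the order Edem1 (95), Ube2j1 (915), Derl1 (1655), Derl2 (2003), Sel1l (2045), Os9 (4270), Selenos (5611), Herpud1 (5851) and Aup1 (6616). A steady gene can rank ahead of a more variable one here without following Syvn1. Ube2j1, Derl1 and Derl2 differed only 1.18-, 1.24- and 1.32-fold between their highest and lowest libraries, so their ranks do not show likeness to Syvn1.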

How the data were processed

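Total RNA of small intestine was sequenced from stranded, randomly primed libraries. The submitters' processing notes name cutadapt, HISAT2 2.0.4, StringTie and the build mm10, while their annotation is not given in the sources used here. For 6 libraries the authors deposited FPKM values of 19763 transcripts, each transcript with a mean of at least 0.5 FPKM in one group, as tested on the values. Read counts cannot be had from these values, which leaves sequencing depth unknown, and counting intervals are not given. Summed FPKM came to 315726 to 330814 per library.

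Transcript identifiers were matched without version to GENCODE M21 (19702 matched, 61 not), and values were summed per gene to 12327 genes. The 12006 genes (unmatched transcripts included) with a mean of at least 0.5 FPKM were fitted on log2(FPKM + 1) with limma 3.58.1 in R 4.3.3 (lmFit, eBayes with a mean-variance trend, 2-sided), with group as the sole term and Benjamini-Hochberg adjustment over all genes at 0.05. The same fit was run on 18216 transcripts. No scaling between libraries was applied. The median log2 fold change over all genes was 0.12, and 0.0089 after median-ratio scaling, so small differences should be read relative to it. The fit was tested on simulated data.

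The members and lists were chosen with earlier results of these data known. Genes named outside the members were, by rule, up to 4 of each ER list by smallest limma p and the 5 profiles nearest to Syvn1, with 1 gene of these not reported here, and transcripts described singly held at least 20% of the gene sum in a library. Rnf139, Plpp6, Impad1, Syvn1-207 and Derl2-207 were named after their values were seen. Promoter sequences are from RefSeq (GRCm38.p6), and junctions from GENCODE M21 transcripts. Other pseudocounts, filters, scalings, fits, the most abundant transcript and leaving out each library were tried as 14 alternatives.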

Additional observations from a re-analysis of the deposited data

How the results depend on the processing

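Among the members, Herpud1, Selenos, Sel1l, Aup1 and Edem1 kept their direction under all 14 alternatives, and no member but Aup1 passed the adjusted threshold in limma under any of them. Aup1 passed without I/R replicate 6, so that the count of members past the threshold ran from 0 to 1 when 1 library was left out. After median-ratio scaling 3 members had a higher mean in I/R in place of 6, with Derl1 at -0.11, Derl2 at -0.084 and Ube2j1 at -0.00084, and after quantile normalization Derl1 was at -0.015 and Derl2 at -0.030. With the most abundant transcript alone, Derl2 was at -0.10 and Os9 at 0.00089. The transcript Derl1-201 turned to -0.10 and Os9-201 to -0.13 after median-ratio scaling, and Os9-201 to -0.00070 with a pseudocount of 0.1. With 1 library left out, Sel1l ran from 0.25 to 0.97, Edem1 from -0.52 to -0.074, Herpud1 from 0.89 to 1.37, Selenos from 0.75 to 1.17, Aup1 from -3.10 to -1.56, Syvn1 from -0.52 to 0.18, Derl1 from -0.057 to 0.095, Derl2 from -0.045 to 0.14 and Os9 from -0.35 to 0.14. Over all genes, 2 were higher and 2 lower past the adjusted threshold. The higher count was 1 after quantile normalization, 0 after median-ratio scaling and 1 with the most abundant transcript, and the lower count was 1 at a minimum mean of 5 FPKM. With 1 library left out, the higher count ran from 0 to 4 and the lower from 0 to 5. For these changes the cause was not tested. No paired analysis was possible because the groups share no replicate number. With an unadjusted p below 0.05, 667 genes were higher and 406 lower in I/R, where quantile normalization gave 518 and 667, median-ratio scaling 457 and 611, and leaving out sham replicate 1 gave 1281 and 338. With 3 libraries per group, a missed threshold does not show equal levels, and depth is unknown.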
